A study of Rattus norvegicus with 79 samples.

Results

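Rats aged 24 months that had been trained in a water maze with a hidden platform, and whose titles carry the group letter B, were compared with rats of the same age that swam in the same kind of pool with no platform. The comparison took 16 B arrays and 8 yoked arrays, 24 of the 79 arrays of the series, and each animal gave 1 array of CA1 hippocampal RNA. The groups were chosen from the sample titles alone, so no measured value decided which array belonged where. All animals were male Fischer 344 rats housed in pairs, killed 24 hours after their last trial by decapitation after 100 mg/kg of pentobarbital, and the CA1 cell layer was taken with a micropunch from slices kept in an RNA preservative. The RNA was amplified in 2 rounds and hybridised to a rat Affymetrix array of 8799 probe sets. The labels explain 2 letters for aged hidden platform rats, I for learning impaired and U for unimpaired, but not the letter B of this group. How well the B rats learned is therefore unknown here, and the 44 aged arrays that the series' design counts equal the 60 aged arrays less the 16 B arrays. Other groups used below were 13 aged hidden platform unimpaired, 10 aged hidden platform impaired, 8 aged visible platform and 5 aged cage control rats, and 6 hidden platform and 6 yoked rats aged 3 months.

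In the hidden platform task a rat must use cues around the pool to learn where to climb out, and this place learning depends on the hippocampus. A yoked rat swims and is handled but has no platform to find. The comparison thus sets training with a hidden platform against swimming with no platform, whatever the B rats learned. CA1 pyramidal neurons are the main output cells of the hippocampus proper. Long-lasting memory in rodents needs new transcription within hours of training, beginning with immediate early genes such as Fos and Arc, followed by genes of synapses, receptors and signalling. A punch of the cell layer also holds interneurons, astrocytes, oligodendrocytes, microglia and vessel cells, and a lower signal can mean fewer cells of a type or less RNA per cell, which cannot be told apart in these bulk samples.

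One yoked array stood apart from the rest. The median Spearman correlation of an array with the other 78, over all probe sets that were not controls, lay between 0.898 and 0.936 in the B group and between 0.642 and 0.931 in the yoked group, and the lowest value belonged to the array of yoked animal 63. Its mean log2 spike-in signal, from control transcripts added in fixed amounts, was 15.9, where the other yoked arrays lay between 9.80 and 12.4. Spike-in signal averaged 10.4 ± 0.717 in B arrays and 11.7 ± 1.87 in yoked arrays (SD, n = 16 and 8), a difference at exact two-sided permutation p = 0.0217 (adjusted over 5 quality measures, 0.0542), and at p = 0.065 without array 63. The median signal of an array was lower in the B group, with a lowest, median and highest of 107.8, 124 and 156, against 129.5, 149.9 and 278 in the yoked group (exact permutation p = 0.00405, adjusted p = 0.0202; without array 63, p = 0.0122, adjusted p = 0.061). Controls that probe the 3' and the 5' end of the same transcript, a sign of RNA integrity, had a log2 ratio of 2.28 ± 0.212 in B arrays and 2.11 ± 0.719 in yoked arrays (SD, n = 16 and 8; exact permutation p = 0.439). Over the 60 aged arrays, 9 had a median correlation under 0.85, here called arrays of low correlation: yoked array 63, 1 unimpaired, 2 impaired, 4 visible platform and 1 cage control array, and no B array. Since the fit over all 60 aged arrays shares 1 estimate of the spread, counts of calls are given with all 60 arrays and without these 9. A difference of a gene printed with no set of arrays named is the one without the 9, and those within a range of animal numbers include array 63 unless stated. With all arrays, B minus yoked called only the 3 probe sets described first.

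**Figure D1:**
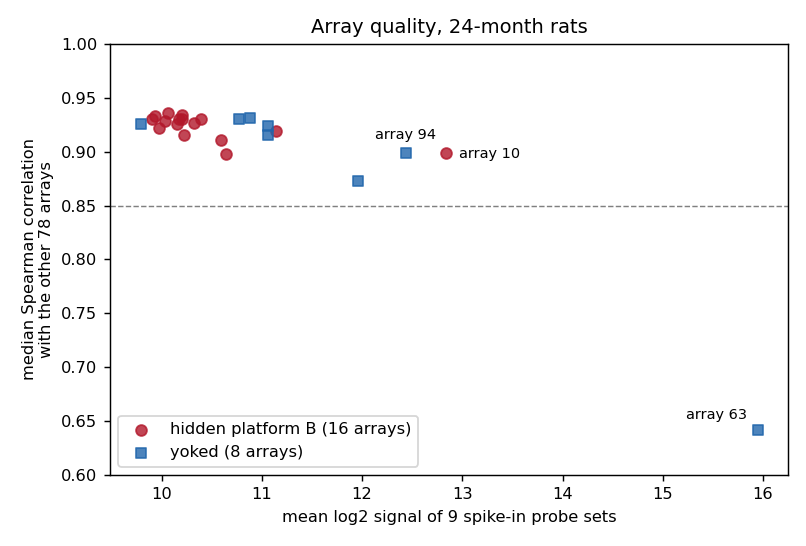
Median Spearman correlation with the other 78 arrays (y axis) against spike-in signal, the mean log2 value of 9 such controls (x axis), for the 16 B arrays (circles) and 8 yoked arrays (squares); the dashed line marks 0.85. Yoked array 63 sits alone at a correlation of 0.642 and a spike-in signal of 15.9, while B array 10 and yoked array 94 have the next highest spike-in signals.

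Few probe sets separated the groups with every aged array in the fit, and many more did without the arrays of low correlation. In limma's test on log2(signal + 15), 3 of 5244 probe sets tested (0.0572%) passed an adjusted p of 0.05 with all 60 arrays, 2 higher (0.0381%) and 1 lower (0.0191%) in B rats, while 874 had an unadjusted p under 0.05. Once the 9 arrays were left out, 200 passed (3.81%), 103 higher (1.96%) and 97 lower (1.85%), and 1160 had an unadjusted p under 0.05. The median standard error of the difference was 0.28 with all arrays and 0.21 without the 9. Of the 200 probe sets, 199 had the same direction with all arrays and 167 had an unadjusted p under 0.05 there. Both fits share every B array and every yoked array but array 63, so this agreement was largely fixed in advance. A fit of the 24 arrays of the 2 groups alone called 269 probe sets (5.13%), 122 higher (2.33%) and 147 lower (2.8%), with 134 of them among the 200. Without array 63 these 2 groups alone gave 215 (4.1%), 107 higher (2.04%) and 108 lower (2.06%). Differences also followed signal level: across the 5244 probe sets the difference and the mean signal had a Spearman correlation of 0.41 with all arrays, 0.21 without the 9, and 0.04 after quantile normalization without the 9, which called 193 probe sets. When each gene was represented by its brightest probe set on average, no gene of 3233 passed with all arrays, and without the 9 arrays 69 genes rose (2.13%) and 49 fell (1.52%).

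The 3 probe sets called with all arrays were also called without the 9. The count depended on single arrays: it was 0 without yoked array 61 or 94 (828 and 819 at an unadjusted p under 0.05), 16 without yoked array 27, 15 without yoked array 93, 29 without B array 10 and 26 without B array 82. One of the probe sets of Sparc, a secreted matrix glycoprotein made by glia and vessel cells, had a lowest, median and highest signal of 265.8, 1004 and 1826 in B rats, against 190.4, 426 and 838 in yoked rats. Most B arrays, 11 of 16, lay above the highest yoked array. Its median signal was 377 in unimpaired, 314 in impaired, 738 in visible platform and 441 in cage control aged rats. It rose by a log2 difference of 1.21 ± 0.24 with all arrays (SE; adjusted p = 0.0137), and by 1.22 ± 0.25 without the 9 arrays (adjusted p = 0.00816). The other Sparc probe sets did not share this: with all arrays, that of the highest mean signal differed by -0.24 ± 0.34 and another by -0.22 ± 0.21, so the gene as a whole is not called higher. Sparc falls outside the rule for named genes and was named after its values were seen. The second probe set, rc_AA892470_at, is annotated with several genes and is given by its identifier. Its signals were 676, 1131 and 1485 in B rats, against 374, 547 and 662 in yoked rats (lowest, median, highest), so that no B array overlapped a yoked array. It rose by 0.99 ± 0.20 with all arrays (SE; adjusted p = 0.0137) and by 0.93 ± 0.16 without the 9 (adjusted p = 0.00183). Its median was 693 in unimpaired, 537 in impaired, 850.4 in visible platform and 1061 in cage control aged rats, so the median of cage controls was closest to that of B rats; no test of that was run. The probe set that fell, rc_AA859994_at, has no gene symbol in the annotation. It had 187, 321 and 473 in B rats, against 352, 758 and 1493 in yoked rats, with 10 of 16 B arrays below the lowest yoked array. It differed by -1.10 ± 0.24 with all arrays (SE, adjusted p = 0.0279) and by -1.08 ± 0.24 without the 9 (adjusted p = 0.0102). Its median was 535 in unimpaired, 736 in impaired, 255 in visible platform and 332.5 in cage control aged rats. A low median was thus not particular to B rats, and no test of that was run.

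Groups that did not overlap were rare. Only 2 of 5244 probe sets (0.0381%) had every B array above every yoked array, and none had every B array below. The second of the 2 was that of Dgat1, an enzyme that makes triglyceride, which was named for this after its values were seen. Its signals were 542, 668 and 819 in B rats, against 169.9, 513 and 539.7 in yoked rats. Dgat1 differed by 0.61 ± 0.24 (adjusted p = 0.215) with all arrays and rose by 0.43 ± 0.12 (adjusted p = 0.0325) without the 9.

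The naming rule took 12 genes of higher and 12 of lower signal in B rats. They are ordered below by what each is known to do, an order made by hand with no test of any group of them. Nrxn3 encodes neurexin 3, a presynaptic adhesion molecule that binds postsynaptic partners. Its lowest, median and highest signals were 743, 1209 and 2279 in B rats, against 279.5, 643 and 1029 in yoked rats. Every B array lay above the yoked median and 10 of 16 above the highest yoked array. Nrxn3 differed by 0.95 ± 0.22 (adjusted p = 0.0551) with all arrays and rose by 1.03 ± 0.21 (adjusted p = 0.00816) without the 9. Dlgap4 encodes a scaffold protein of the postsynaptic density. Its signals were 852, 1924 and 3640 in B rats, against 375, 722 and 1886 in yoked rats. The groups overlapped, with 9 of 16 B arrays above the highest yoked array. Dlgap4 differed by 1.26 ± 0.31 (adjusted p = 0.0551) with all arrays and rose by 1.22 ± 0.27 (adjusted p = 0.0102) without the 9. Synj1 encodes synaptojanin 1, a lipid phosphatase that helps strip the coat from recycled synaptic vesicles. Its signals were 3340, 6314 and 8068 in B rats, against 1797, 3251 and 4663 in yoked rats. All but 1 B array lay above the highest yoked array. Synj1 differed by 1.09 ± 0.29 (adjusted p = 0.0722) with all arrays and rose by 1.00 ± 0.16 (adjusted p = 0.000793) without the 9, the smallest adjusted p of that fit.

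**Figure D2:**
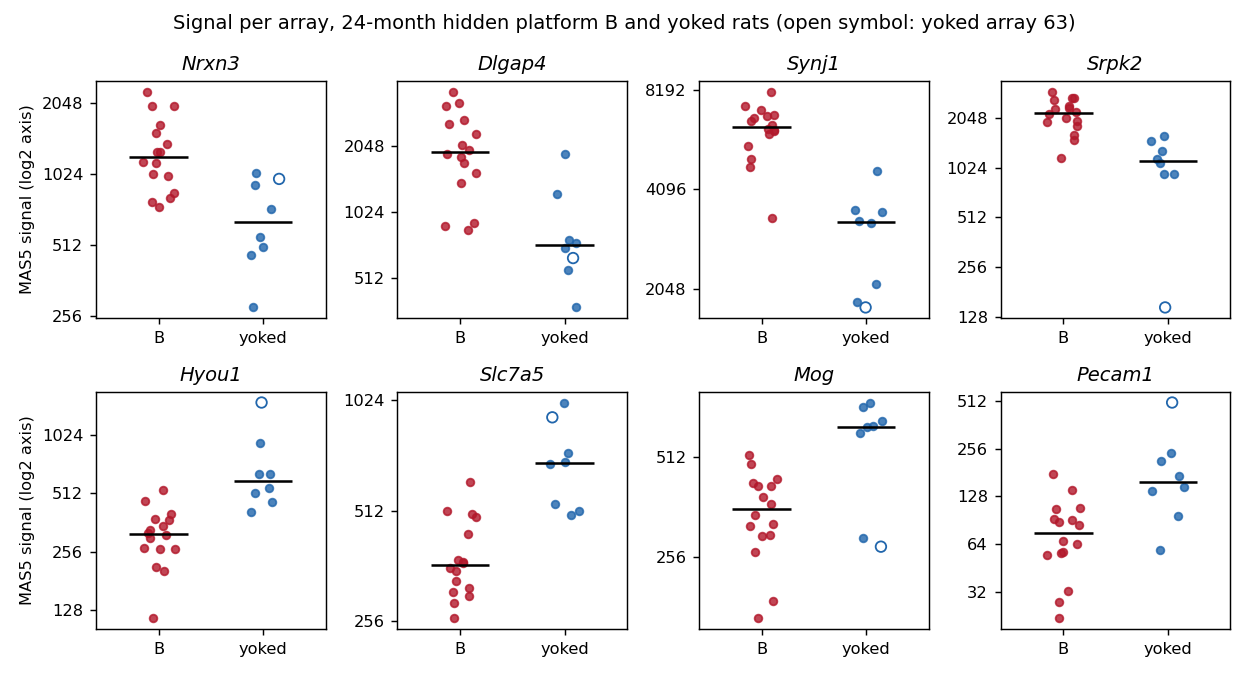
MAS5 signal on a log2 axis for each array, for 8 genes, with B rats on the left (16 arrays) and yoked rats on the right (8 arrays); bars are medians and the open symbol is yoked array 63. In the upper row (Nrxn3, Dlgap4, Synj1, Srpk2) the B median is the higher one, in the lower row (Hyou1, Slc7a5, Mog, Pecam1) the yoked median is, and array 63 lies at an end of the yoked range for Synj1, Srpk2, Hyou1, Mog and Pecam1.

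Srpk2, Ddx39b, Ubqln1 and Cand1 were also among the 12 higher genes. Srpk2, a kinase of splicing factors, had signals of 1172, 2193 and 2941 in B rats, against 146, 1122 and 1595 in yoked rats. Array 63 gave the lowest of these, and 14 of 16 B arrays were above the highest yoked one. Srpk2 differed by 1.17 ± 0.30 (adjusted p = 0.0551) with all arrays and rose by 0.81 ± 0.18 (adjusted p = 0.0102) without the 9. Ddx39b, an RNA helicase of splicing and mRNA export, had 514, 979 and 1456 in B rats, against 26.1, 542 and 836 in yoked rats. Its 2 lowest yoked values, 26.1 and 36.6, lay far under all B values. Ddx39b differed by 1.61 ± 0.41 (adjusted p = 0.0551) with all arrays and rose by 1.23 ± 0.29 (adjusted p = 0.0135) without the 9. Ubqln1, which carries ubiquitinated proteins to the proteasome, had 525, 642 and 963 in B rats, against 66.3, 362 and 651 in yoked rats. The low yoked end was again array 63. Ubqln1 differed by 1.00 ± 0.25 (adjusted p = 0.0551) with all arrays and rose by 0.71 ± 0.16 (adjusted p = 0.0102) without the 9. Cand1, an exchange factor of cullin ubiquitin ligases, had 581, 1116 and 1480 in B rats, against 478, 538 and 718 in yoked rats, with 14 of 16 B arrays above all yoked arrays. Cand1 differed by 0.90 ± 0.25 (adjusted p = 0.0825) with all arrays and rose by 0.93 ± 0.22 (adjusted p = 0.0127) without the 9.

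The other 5 higher genes of the rule have varied roles. Rpl41, a small protein of the large ribosomal subunit, had 526.4, 962 and 1521 in B rats, against 306, 512 and 755 in yoked rats. It rose by 0.88 ± 0.17 (adjusted p = 0.00404) without the 9 arrays. Selenow, a small selenium-containing protein linked to redox control, had 1124, 1922 and 2877 in B rats, against 87.5, 950.4 and 1836 in yoked rats, and its lowest yoked value was array 63. It rose by 0.92 ± 0.25 (adjusted p = 0.0306) without the 9 arrays. Lysmd4, a membrane protein with a LysM domain, had 2372, 4118 and 6453 in B rats, against 934, 2103 and 3483 in yoked rats, with 12 of 16 B arrays above every yoked array. It rose by 0.85 ± 0.18 (adjusted p = 0.0102). Aopep, an aminopeptidase, had 239, 492 and 895 in B rats, against 108, 306 and 385 in yoked rats and rose by 0.85 ± 0.22 (adjusted p = 0.0176). Arl10, a small GTPase of the ARF-like family, had 222, 386 and 677 in B rats, against 98.8, 175 and 387 in yoked rats, the groups overlapping more than for Aopep. It rose by 0.88 ± 0.20 (adjusted p = 0.0112). With all arrays the differences of these 5 genes were between 0.83 and 1.33 and their adjusted p was 0.0551 each.

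The 12 lower genes began with Hyou1, Dnajc1 and Slc7a5. Hyou1, a stress-induced chaperone of the endoplasmic reticulum, had signals of 116, 316 and 530.4 in B rats, against 408, 594 and 1512 in yoked rats. The highest yoked value was array 63, and 14 of 16 B arrays lay below the lowest yoked array. Hyou1 differed by -1.07 ± 0.27 (adjusted p = 0.0551) with all arrays and fell by 0.90 ± 0.22 (adjusted p = 0.014) without the 9. Dnajc1, a co-chaperone in the membrane of the same compartment, had 56.6, 100.3 and 166 in B rats, against 95.6, 193 and 544 in yoked rats. Every B array was below the yoked median. It fell by 0.70 ± 0.19 (adjusted p = 0.0241) without the 9. Slc7a5, the light chain of a transporter of large neutral amino acids, had 261, 364 and 612 in B rats, against 499.6, 692 and 1011 in yoked rats. No B array reached the yoked median, and 13 of 16 were below the lowest yoked array. Slc7a5 differed by -0.83 ± 0.22 (adjusted p = 0.0825) with all arrays and fell by 0.76 ± 0.18 (adjusted p = 0.0135) without the 9. Arhgef4, a guanine nucleotide exchange factor, had 42, 72.4 and 289 in B rats, against 85.2, 171 and 1341 in yoked rats. Its highest yoked value was array 63, and the next was 442. Arhgef4 fell by 0.95 ± 0.27 (adjusted p = 0.0361) without the 9. Hes3, a transcriptional repressor of the Notch pathway family, had 63.2, 123 and 254 in B rats, against 159.7, 265 and 1179 in yoked rats, and array 63 was again the highest. It fell by 0.81 ± 0.22 (adjusted p = 0.0251) without the 9. Adrb3, the beta-3 adrenergic receptor, had 101, 296 and 524 in B rats, against 405, 510.3 and 848 in yoked rats. All but 3 B arrays lay below the lowest yoked array, and it fell by 0.84 ± 0.24 (adjusted p = 0.0347) without the 9.

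The remaining 6 lower genes included Sult2a1, Ugt2b1, Rhag and Abcc6. Sult2a1, a sulfotransferase of steroids and bile acids known from liver, had 24.3, 50.8 and 102 in B rats, against 48.9, 127 and 779 in yoked rats. Array 63 held the top value. Sult2a1 fell by 1.12 ± 0.28 (adjusted p = 0.0152) without the 9 arrays. Ugt2b1, a liver glucuronosyltransferase, had 12.2, 66.7 and 168 in B rats, against 91.3, 155 and 217 in yoked rats and fell by 1.13 ± 0.30 (adjusted p = 0.0245). Rhag, an ammonia channel of red cells, had 42.1, 73.5 and 112 in B rats, against 87.8, 163 and 452 in yoked rats and fell by 0.90 ± 0.21 (adjusted p = 0.0127). Abcc6, a membrane transporter of liver and kidney, had 271, 310.4 and 571 in B rats, against 417, 594 and 1978 in yoked rats and fell by 0.60 ± 0.16 (adjusted p = 0.0275). For both Rhag and Abcc6 no B array reached the yoked median. Slc27a2, a fatty acid transport protein and acyl-CoA synthetase, had 34.3, 61.5 and 203 in B rats, against 50, 181 and 571 in yoked rats. Slc27a2 differed by -1.05 ± 0.34 (adjusted p = 0.0618) without the 9 and so did not pass. Rpl30, a protein of the large ribosomal subunit, had 13.2, 36 and 335 in B rats, against 42.8, 192 and 519 in yoked rats. Rpl30 fell by 1.57 ± 0.41 (adjusted p = 0.0209) without the 9, the largest size among the 24 genes. The filter left out a probe set with a mean signal of 111.4 and kept one with 119.9. The B medians of Sult2a1, Ugt2b1, Rhag, Slc27a2 and Rpl30 lay below both, as did those of Arhgef4 and Dnajc1. A filter on the mean over arrays thus did not screen these genes for low signal in B rats. With all arrays the 12 lower genes had adjusted p between 0.0551 and 0.132.

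**Figure D3:**
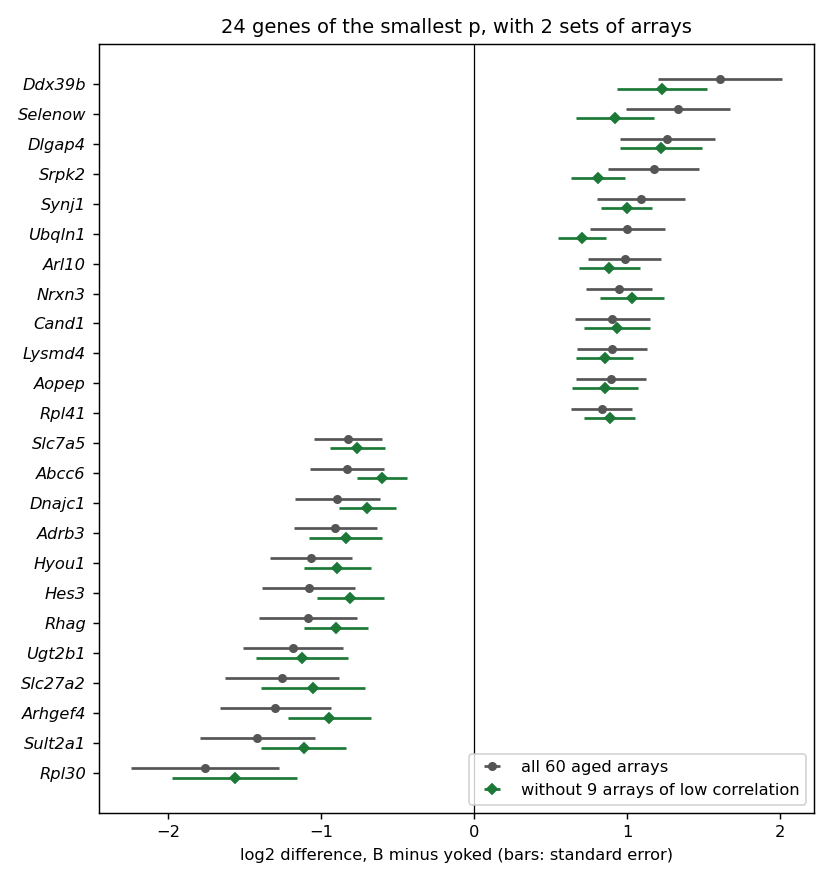
Log2 difference, B minus yoked, on log2(signal + 15) for the 24 genes of the naming rule, with all 60 aged arrays (circles) and without the 9 arrays of low correlation (diamonds); bars are standard errors. The direction is the same in both fits for each gene, and the standard errors are smaller without the 9 arrays, as for Synj1 (0.29 and 0.16).

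Other probe sets of the same genes were read on the same arrays, so they are not an independent check. The 118 genes called without the 9 arrays had 42 other probe sets, from 32 of the genes, and 35 of them (83.3%) moved in the direction of the call. Their median difference in that direction was 0.31, against 0.68 for the called probe sets. No such share was computed for genes that were not called, so the 83.3% has no background beside it. A second probe set of Dlgap4 differed by 0.79 ± 0.29 without the 9 arrays and one of Lysmd4 by 0.89 ± 0.35. Other probe sets of Synj1 (0.30 ± 0.32), Cand1 (0.27 ± 0.23) and Aopep (0.27 ± 0.33) had smaller differences than the called ones. That of Srpk2 differed by 0.02 ± 0.13, and 3 of Ddx39b lay between 0.07 and 0.16. Those of Hyou1 (-0.83 ± 0.37) and Arl10 (-0.20 ± 0.19) fell below the filter on low signals and are not among the 42.

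Animal numbers fall into 3 ranges, and the labels do not call the ranges batches. Range 1 (numbers up to 36) held 8 B and 2 yoked arrays, range 2 (37 to 76) held 3 and 3, and range 3 (81 to 100) held 5 and 3. Each of the 24 genes had the same direction in all 3 ranges. The genes were picked on these same arrays, which favours a shared direction in advance, and no such share was computed over all genes. Synj1 differed by 1.02, 1.37 and 0.97 in ranges 1, 2 and 3, and by 1.07 in range 2 without array 63. Dlgap4 differed by 1.22, 1.78 and 1.19, and Slc7a5 by -0.73, -0.79 and -0.90. Nrxn3 ranged more widely, with 1.58, 1.33 and 0.44, as did Arhgef4, with -0.31, -1.68 and -1.42. The size of the difference in these 2 genes thus varied with the range of animal numbers.

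Genes of the lists below are counted on their brightest probe set. Without the 9 arrays, 15 listed genes had another probe set that passed: Bdnf, Dbn1, Fdft1, Homer1, Jun, Map2k1, Mog, Pdia3, Prkce, Psmb5, Qdpr, Rpl21, Rpl27, Scd2 and Slc1a3. These were named after their values were seen, and a list said to have no call may hold one of them. The number of other probe sets tested for listed genes was not counted. Their share can thus not be set beside the 3.81% of all 5244 probe sets that passed. Marker genes of the tissue were read as well. Of 20 listed markers of CA1 and pyramidal neurons 9 were tested, among them Hpca, Nrgn and Camk2b. No defining marker had a signal of 0 on any of the 24 arrays. Only 46 values in the whole series were 0, so nearly any probe set would pass this. It therefore cannot tell whether the punch was CA1. The tested CA1 and pyramidal markers had a median difference of 0.21 with all arrays and -0.002 without the 9, with none called. It was 0.22 without the 9 after quantile normalization. Hpca, the neuronal calcium sensor hippocalcin, had 8915, 11360 and 17290 in B rats, against 1968, 11410 and 15860 in yoked rats. Array 63 gave the lowest yoked value by far, and the medians of the groups were close. Markers of dentate gyrus and CA3 were measured too, with 6 tested and none called. Summed over its tested members, the dentate and CA3 list ran from 2984 to 4647 in B rats and from 2987 to 5999 in yoked rats.

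Oligodendrocyte and myelin genes stood lowest of the 32 lists without the 9 arrays. Of the 16 tested, 15 had a difference below 0 in both fits, with a median of -0.28 with all arrays and -0.36 without the 9, where the median of all 3233 genes was -0.04 and -0.03. None passed with all arrays, and without the 9 Mog and Mobp fell (2 of 16, beside 3.65% of all genes called). Mog, a myelin surface glycoprotein, had 167, 356 and 519 in B rats, against 274, 633 and 749 in yoked rats. Every B array was below the yoked median, while array 63 and another yoked array lay in the lower part of the B range. Mog differed by -0.64 ± 0.22 (adjusted p = 0.179) with all arrays and fell by 0.78 ± 0.19 (adjusted p = 0.0135) without the 9, and its second probe set, L21995_s_at, shown after its values were seen, fell by 1.11 ± 0.32 (adjusted p = 0.0363). Mobp, a protein of compact myelin, had 2434, 5004 and 8434 in B rats, against 1273, 7386 and 11750 in yoked rats and fell by 0.73 ± 0.21 (adjusted p = 0.0379) without the 9, but differed by -0.39 ± 0.34 (adjusted p = 0.541) with all arrays. Within range 2 of the animal numbers Mobp differed by 0.19, the other way, and by -0.71 there without array 63, which gave the lowest yoked value. Mag and Mal, both of the myelin membrane, differed by -0.55 ± 0.18 (adjusted p = 0.0683) and -0.68 ± 0.23 (adjusted p = 0.0733) without the 9 and did not pass. The summed signal of the list ran from 13490 to 27960 in B rats, against 13050 to 48020 in yoked rats, and against 22550 to 48020 without array 63. With all arrays the list's median difference from the same yoked arrays was -0.28 in B, -0.14 in unimpaired and -0.37 in impaired rats. A low median of this list was thus not particular to B rats, and no test of that was run. Whether the share of myelin in the punch moved with these genes was not tested.

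Markers of other cells showed fewer calls. Of 19 astrocyte markers, the median difference was 0.00 with all arrays and -0.27 without the 9, and Sparcl1 fell. Sparcl1, a matrix protein secreted by astrocytes that takes part in synapse formation, had 8573, 11490 and 17720 in B rats, against 8176, 15830 and 18310 in yoked rats and fell by 0.45 ± 0.13 (adjusted p = 0.033) without the 9. Aqp4, the water channel of astrocyte endfeet, ran the other way with 0.62 ± 0.23 (adjusted p = 0.11), which did not pass. All 14 endothelial and mural markers were below 0 with all arrays (median -0.41), and 11 of 14 without the 9 (median -0.19), where Pecam1 fell. Pecam1, an adhesion molecule of endothelial cells, had 21.9, 75.3 and 176 in B rats, against 58.5, 158 and 499 in yoked rats, with array 63 at the top of the yoked range. It fell by 0.85 ± 0.25 (adjusted p = 0.0437). The 15 microglia and complement genes (median -0.12 without the 9), 12 interneuron markers (0.14), 7 choroid plexus markers (-0.09) and 5 blood markers (-0.06) had no call in either fit. Aif1, a marker of microglia, had 104, 281 and 363 in B rats, against 22.2, 139 and 307 in yoked rats and differed by 0.72 ± 0.28 (adjusted p = 0.127) without the 9. Its probe set U33471_at differed by -0.12 ± 0.20 there, the other way. Cck, a peptide of interneurons that pyramidal cells also express, had 2248, 4486 and 6957 in B rats, against 471, 2695 and 4404 in yoked rats and differed by 0.57 ± 0.20 (adjusted p = 0.0876). Neither passed.

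**Figure D4:**
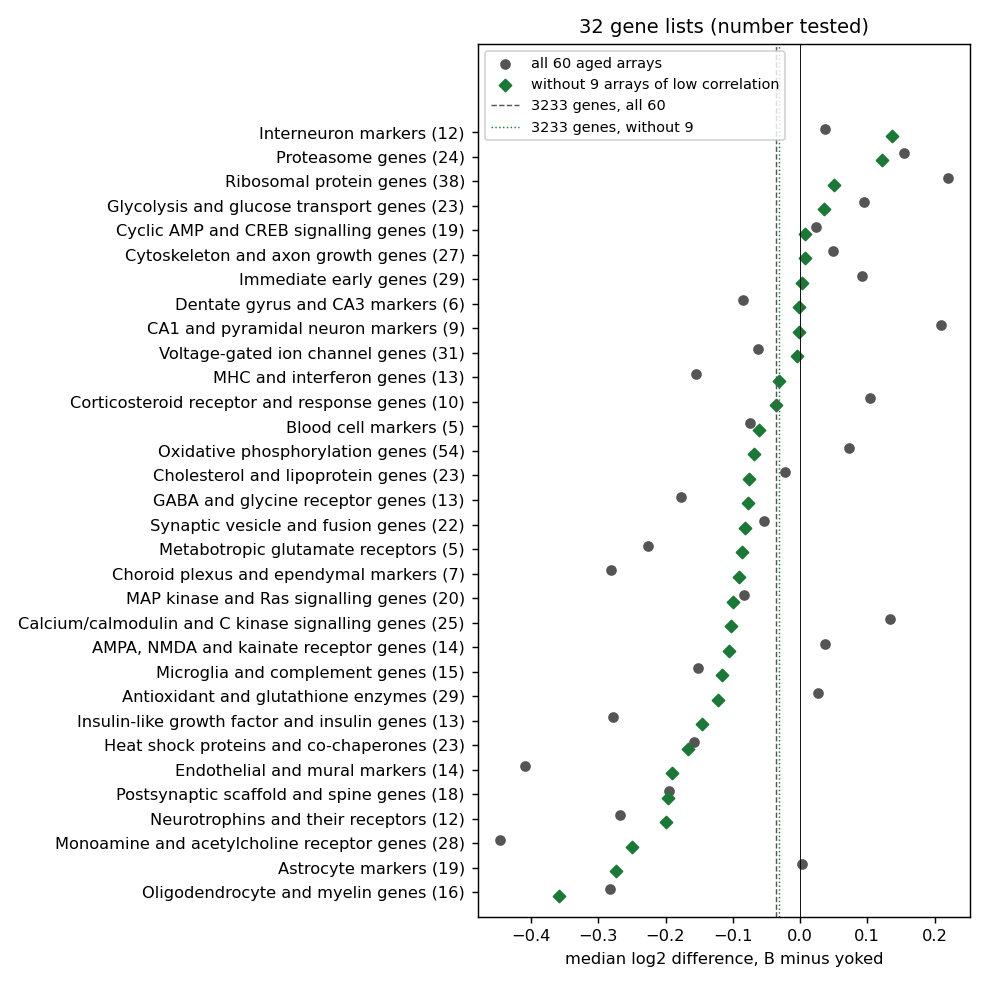
Median log2 difference, B minus yoked, over the tested members of 32 gene lists (number tested in brackets), with all 60 aged arrays (circles) and without the 9 arrays of low correlation (diamonds); dashed and dotted lines mark the medians of 3233 genes in the 2 fits. Myelin genes lie lowest without the 9 arrays at -0.36, and CA1 markers lie at 0.21 with all arrays and, on the values as deposited, at -0.002 without the 9 (0.22 there after quantile normalization).

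No immediate early gene passed in either fit on its brightest probe set, while other probe sets of Jun, Homer1 and Bdnf passed without the 9. The 29 tested had a median difference of 0.09 with all arrays and 0.00 without the 9, with 15 above and 14 below 0 in the second. Nr4a1, a nuclear receptor induced by activity, had 978, 1785 and 2972 in B rats, against 674, 1317 and 2053 in yoked rats and differed by 0.51 ± 0.21 (adjusted p = 0.145) without the 9. Klf10, a zinc finger factor, had 452, 922 and 1348 in B rats, against 213, 548 and 828 in yoked rats and differed by 0.59 ± 0.27 (adjusted p = 0.191). For both genes the B median of this probe set was the higher one, but the ranges overlapped. U88630_at and rc_AI071299_at of Klf10 lay below the filter on low signals. They differed the other way, by -0.69 ± 0.26 and -0.36 ± 0.30 without the 9. Bdnf, the neurotrophin most studied in learning, is read by several probe sets that disagreed: that of the highest mean signal differed by 0.63 ± 0.32 (adjusted p = 0.239) without the 9, while S76799_at, picked out after its values were seen, fell by 0.74 ± 0.22 (adjusted p = 0.0439). The 12 neurotrophin and receptor genes had no call on their brightest probe sets, with a median of -0.20 without the 9.

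Receptor and synapse lists held scattered calls. Of 18 postsynaptic scaffold genes, 14 were below 0 without the 9 arrays (median -0.20) and Grip2 fell. Grip2, a scaffold that binds AMPA receptors, had 555, 649 and 897 in B rats, against 681, 1018 and 1553 in yoked rats. All B arrays were below the yoked median, and it fell by 0.59 ± 0.18 (adjusted p = 0.0436). Dlg4 (PSD-95), Dlg2 and Dlgap1, of the same scaffold, differed by -0.55 ± 0.21 (adjusted p = 0.107), -0.54 ± 0.20 (adjusted p = 0.111) and -0.53 ± 0.21 (adjusted p = 0.128), and none passed. Dlgap4, described above as higher, was not on that list. Of 22 synaptic vesicle and fusion genes Vamp3, a vesicle protein of endosomal traffic, fell by 0.57 ± 0.17 (adjusted p = 0.0453) without the 9, with signals of 368, 724 and 944 in B rats, against 690.5, 949 and 1465 in yoked rats. Of 28 monoamine and acetylcholine receptor genes 24 were below 0 with all arrays (median -0.45) and 23 without the 9 (median -0.25, and -0.12 after quantile normalization), with Adrb3 the one call. Chrna4, a nicotinic receptor subunit, had 19.5, 47.6 and 159.9 in B rats, against 52.2, 119.8 and 667 in yoked rats and differed by -0.82 ± 0.32 (adjusted p = 0.113) without the 9, short of the threshold. Of 31 voltage-gated channel genes Cacnb2, an auxiliary calcium channel subunit, rose by 0.69 ± 0.16 (adjusted p = 0.0127), with 1133, 2067 and 2675 in B rats, against 769, 1494 and 1634 in yoked rats. Most B arrays, 14 of 16, were above every yoked array. Another Cacnb2 probe set, M80545_at, differed by only 0.19 ± 0.18 without the 9.

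Glutamate and GABA receptor genes and kinase pathways gave little. The 14 AMPA, NMDA and kainate receptor genes had medians of 0.04 with all arrays and -0.11 without the 9 and no call. Gria3, an AMPA receptor subunit, had 678, 1150 and 1843 in B rats, against 302, 546 and 1902 in yoked rats and differed by 0.63 ± 0.33 (adjusted p = 0.25). Grin2b, an NMDA receptor subunit, differed by -0.29 ± 0.12 (adjusted p = 0.155), and its highest yoked value, 1264, was array 63. No metabotropic glutamate receptor (5 tested), GABA or glycine receptor (13), cyclic AMP signalling (19) or calcium/calmodulin and C kinase gene (25) passed on its brightest probe set. Prkce, which encodes protein kinase C epsilon, had another probe set, M18331_at, that rose by 0.81 ± 0.22 (adjusted p = 0.0306) without the 9 and differed by 1.24 ± 0.34 (adjusted p = 0.0825) with all arrays. Its other 3 tested probe sets lay between 0.10 and 0.45 without the 9. Camk2n1, an inhibitor of CaM kinase II, came near, with 64.5, 275 and 737 in B rats, against 30.7, 100.3 and 313 in yoked rats and a difference of 1.34 ± 0.41 (adjusted p = 0.0532) without the 9. Of 20 MAP kinase and Ras genes Ptpn5, a striatal-enriched phosphatase that opposes this pathway, rose by 0.40 ± 0.12 (adjusted p = 0.0435), with 1975, 2467 and 3274 in B rats, against 1470, 1937 and 2341 in yoked rats. Of 13 insulin-like growth factor genes Igfbp3, a binding protein of these factors, rose by 1.21 ± 0.29 (adjusted p = 0.0135), with 65.9, 122 and 209 in B rats, against 14.1, 58.05 and 168 in yoked rats. No corticosteroid response gene of 10 passed, and Nr3c1, the glucocorticoid receptor, differed by 0.43 ± 0.16 (adjusted p = 0.093).

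The 38 ribosomal protein genes had a median of 0.22 with all arrays and 0.05 without the 9 (0.17 after quantile normalization), where Rpl41 and Rps10 rose and Rpl30 and Rpl23 fell. Rps10, of the small subunit, had 733, 1198 and 1609 in B rats, against 352, 641 and 1262 in yoked rats and rose by 0.65 ± 0.20 (adjusted p = 0.0468). Rpl23, of the large subunit, had 9218, 12090 and 24760 in B rats, against 12820, 19530 and 44320 in yoked rats and fell by 0.62 ± 0.18 (adjusted p = 0.0336). Another Rpl23 probe set, X58200mRNA_at, of lower signal, differed by 0.31 ± 0.29 without the 9, the other way. Ribosomal protein genes have many processed copies in the genome, and their probe sets may read more than 1 of them. The 54 oxidative phosphorylation genes had medians of 0.07 and -0.07, and Cox6a2 and Cyc1 fell without the 9. Cox6a2, a subunit of cytochrome oxidase known from heart and muscle, had 174, 236 and 522 in B rats, against 276, 446 and 917 in yoked rats and fell by 0.61 ± 0.18 (adjusted p = 0.0452). Cyc1, of complex III, had 2416, 3328 and 6499 in B rats, against 387, 4510 and 7219 in yoked rats, differed by -0.09 ± 0.40 (adjusted p = 0.915) with all arrays and fell by 0.54 ± 0.16 (adjusted p = 0.0409) without the 9, and array 63 gave its lowest yoked value, 387, where the next was 3253. The 24 proteasome genes had medians of 0.15 with all arrays and 0.12 without the 9 (0.06 after quantile normalization), with no call on their brightest probe sets. The probe set rc_AA891226_s_at of the proteasome subunit gene Psmb5 rose by 0.72 ± 0.19 (adjusted p = 0.0241) without the 9 and differed by 1.10 ± 0.33 (adjusted p = 0.128) with all arrays.

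Of 29 antioxidant and glutathione genes, 21 were below 0 without the 9 arrays (median -0.12, against 0.03 with all arrays), and Gstm1 and Prdx6 fell. Gstm1, a glutathione transferase, had 2885, 4166 and 6475 in B rats, against 2313, 7688 and 10060 in yoked rats. Without array 63, 14 of 16 B arrays were below the lowest yoked array. It fell by 0.80 ± 0.17 (adjusted p = 0.0102) without the 9, and differed by -0.59 ± 0.28 (adjusted p = 0.281) with all arrays. Prdx6, a peroxiredoxin, had 2287, 3255 and 4192 in B rats, against 1062, 4520 and 7966 in yoked rats and fell by 0.62 ± 0.16 (adjusted p = 0.0169) without the 9, against a difference of -0.35 ± 0.28 (adjusted p = 0.506) with all arrays. Prdx6 differed by 0.31 within range 2 with array 63 and by -0.32 there without it. Of 23 heat shock and co-chaperone genes Hsp90ab1, a constitutive cytosolic chaperone, had 8353, 13810 and 17740 in B rats, against 5164, 18950 and 28160 in yoked rats. It fell by 0.65 ± 0.17 (adjusted p = 0.0197) without the 9 and differed by -0.40 ± 0.34 (adjusted p = 0.523) with all arrays. Its probe sets disagreed: rc_AI008074_s_at, of lower signal, differed by 0.86 ± 0.28 without the 9 and 1.32 ± 0.41 with all arrays, the other way. Array 63 gave the lowest yoked value for Gstm1, Prdx6 and Hsp90ab1 alike. Of 13 MHC and interferon genes B2m, the shared light chain of MHC class I, had 1692, 3543 and 4508 in B rats, against 1615, 2173 and 2486 in yoked rats, with 15 of 16 B arrays above every yoked array. B2m differed by 0.70 ± 0.26 (adjusted p = 0.201) with all arrays and rose by 0.65 ± 0.16 (adjusted p = 0.0135) without the 9. Psmb8, a subunit of the immunoproteasome, lay the other way, with 41.2, 92.3 and 275 in B rats, against 79.5, 185 and 469.8 in yoked rats and a difference of -0.96 ± 0.32 (adjusted p = 0.0749). Of 23 cholesterol genes Sqle, squalene epoxidase, had 530.1, 1053 and 1700 in B rats, against 124, 661 and 867 in yoked rats. It rose by 0.59 ± 0.18 (adjusted p = 0.0482) without the 9 and differed by 0.88 ± 0.37 (adjusted p = 0.239) with all arrays. No gene of the glycolysis (23) or cytoskeleton (27) lists passed. Over all lists, 21 of 593 listed genes passed without the 9 arrays (3.54%), close to the 3.65% of all genes.

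The other aged hidden platform groups give a view of the same genes, but unimpaired and impaired rats were set against the same 8 yoked arrays, so their differences are given side by side only. Without the 9 arrays, unimpaired minus yoked called 1 probe set (0.0191%) and impaired minus yoked none (0%; 401 at an unadjusted p under 0.05). Synj1 differed from yoked by 1.00 in B rats, 0.50 in unimpaired and 0.35 in impaired rats. Dlgap4 differed by 1.22, 0.45 and 0.11, and Nrxn3 by 1.03, 0.52 and 0.29 in the same order. For Slc7a5 the 3 values were -0.76, -0.75 and -0.40, with median signals of 364 in B rats, 361 in unimpaired rats and 452.5 in impaired rats. B minus unimpaired for Slc7a5 was -0.01 ± 0.15 (adjusted p = 0.984).

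**Figure D5:**
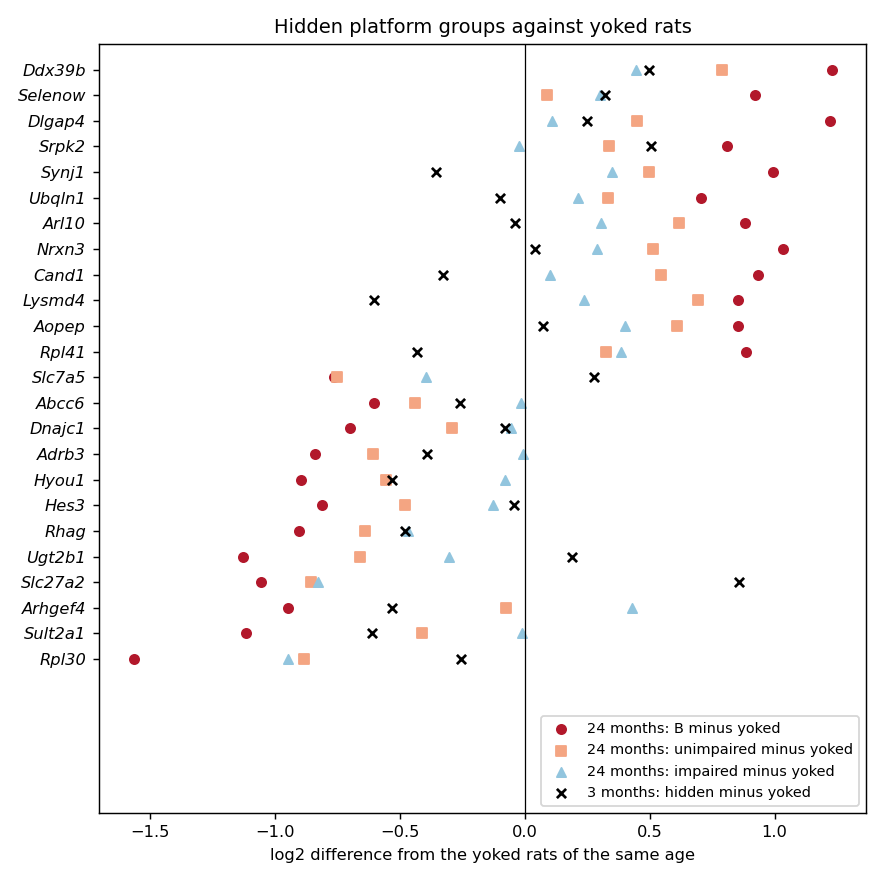
Log2 difference from yoked rats of the same age, without arrays of low correlation, for the 24 genes: aged B (circles), aged unimpaired (squares), aged impaired (triangles) and 3-month hidden platform rats (crosses). The 3 aged groups share their yoked arrays. Slc7a5 has nearly the same difference in B and unimpaired rats (-0.76 and -0.75), while Lysmd4 lies at 0.85 in B rats and -0.60 in 3-month rats.

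Tests between the hidden platform groups need no yoked arrays, but no quality measure was tested between these groups. Spike-in signal in B arrays had a lowest, median and highest of 9.90, 10.2 and 12.8. The lowest unimpaired value was 10.43, in array 53. The lowest impaired value was 9.62, in array 83 of low correlation, and the next was 10.98, in array 87. The part of spike-in signal in the calls below was not tested. B minus unimpaired called 3 probe sets with all arrays (0.0572%) and 87 without the 9 (1.66%), 43 higher (0.82%) and 44 lower (0.839%). B minus impaired called 629 with all arrays (12%), 304 higher (5.8%) and 325 lower (6.2%), and 490 without the 9 (9.34%), 240 higher (4.58%) and 250 lower (4.77%). The Sparc probe set was higher in B than in unimpaired rats by 1.33 ± 0.21 with all arrays (adjusted p = 0.000149) and than in impaired rats by 1.57 ± 0.23 (adjusted p = 1.2e-05). With all arrays Nrxn3 (0.91, adjusted p = 0.00368), Dlgap4 (1.56, adjusted p = 0.00073), Synj1 (1.18, adjusted p = 0.00413) and Lysmd4 (0.89, adjusted p = 0.00645) were higher in B than in impaired rats, and Arhgef4 (-1.63, adjusted p = 0.00199) was lower. Without the 9, which include 2 impaired arrays, the differences of the first 4 were smaller, 0.74 for Nrxn3 (adjusted p = 0.0156), 1.11 for Dlgap4 (adjusted p = 0.00552), 0.65 for Synj1 (adjusted p = 0.00809) and 0.61 for Lysmd4 (adjusted p = 0.0214), and that of Arhgef4 was -1.38 (adjusted p = 0.00125). Among the 24 genes, without the 9, Rpl41 (0.56, adjusted p = 0.0273), Synj1 (0.50, adjusted p = 0.0443), Selenow (0.83, adjusted p = 0.031) and Arhgef4 (-0.87, adjusted p = 0.0344) also differed between B and unimpaired rats. Camk2n1 and Kcna1, a voltage-gated potassium channel, were higher in B than in unimpaired rats by 1.41 and 0.98 (adjusted p = 0.0259 and 0.02), although neither passed against yoked rats. Dact2, an inhibitor of Wnt and TGF-beta signalling, was higher in B rats than in yoked (0.89, adjusted p = 0.0241), unimpaired (0.99, adjusted p = 0.0102) and impaired rats (0.90, adjusted p = 0.01). Rbl2, a relative of the retinoblastoma protein, was lower in B rats than in the same 3 groups, with differences of -0.53, -0.53 and -0.93 (adjusted p = 0.0452, 0.0273 and 0.00018).

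Young rats offered the same contrast in animals that share no array with the aged groups. In 3-month rats hidden minus yoked called no probe set in either fit (0%), with 194 at an unadjusted p under 0.05 with all arrays and 506 without arrays of low correlation. The test of the difference between the ages called none with all arrays (0%; 358 at an unadjusted p under 0.05) and 11 without arrays of low correlation (0.21%), 5 higher (0.0953%) and 6 lower (0.114%). Of the 200 probe sets called in aged rats without the 9, 111 (55.5%) had the same direction in young rats, where 53.8% of all probe sets did. Lysmd4, Synj1, Rpl41 and Txnl1, a thioredoxin-like protein, were among the 11. Lysmd4 signals in young rats were 2226, 3230 and 3852 with the hidden platform, against 3319, 4280 and 8120 in yoked rats (lowest, median, highest; n = 5 and 6), so the yoked median was the higher one there, unlike in aged rats. The aged difference exceeded the young one by 1.46 ± 0.31 for Lysmd4 (SE; adjusted p = 0.0153), 1.35 ± 0.28 for Synj1 (adjusted p = 0.0153), 1.32 ± 0.29 for Rpl41 (adjusted p = 0.0195) and 1.47 ± 0.30 for Txnl1 (adjusted p = 0.0153). In aged rats Txnl1 had 781, 1378 and 1822 in B rats, against 382, 839.9 and 1901 in yoked rats, with array 63 at the top of the yoked range, and rose by 0.79 ± 0.18 (adjusted p = 0.0102) without the 9. In young rats none of the 4 genes passed on its own.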

How the data were processed

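CA1 RNA of 79 rats was measured on 79 arrays, 1 per animal. The deposited values are intensity, 1 MAS5 signal per probe set, per the submitters' processing notes; the MAS5 version is not given in the sources used here. In each array the mean without the 2% of values at each end was 500.09 to 500.98, so the authors' values were already scaled. Precision is limited by the number of arrays. Gene symbols came from the platform annotation: 7018 probe sets had 1 symbol, 308 several and 1426 other than controls none. Signals were taken as log2(signal + 15), the 40% of probe sets of lowest mean signal were left out, and 5244 were tested with limma 3.58.1 in R 4.3.3 (lmFit, eBayes with trend), with 1 mean per group over the 60 aged arrays and Benjamini-Hochberg adjustment over all 5244. Aged and young rats were compared in a fit of all 79 arrays. Adjusted p-values of genes are limma's, from these fits. Array measures were compared with exact permutation tests (SciPy 1.17.1, Python 3.11.15).

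Named genes have 1 symbol and the gene's highest mean signal: the 12 of smallest unadjusted p in each direction, 4 per list, 5 per further comparison, and list members called without the 9 arrays. The members and lists were chosen with earlier results of these data known. No number pairs a B rat with a yoked rat. Alternatives were other sets of arrays, pseudocounts of 1 and 60, other filters, normalizations and weights, and covariates. Spike-in signal as a covariate, the 24 arrays without array 63, the fit without the 3 of the 24 arrays with a spike-in signal over 12, and variations of the fit without the 9 arrays were chosen after seeing the data.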

Additional observations from a re-analysis of the deposited data

Results flagged for a closer look

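Of 101 values tested in the 8 yoked arrays, 27 had a highest or lowest array whose gap to the nearest other array exceeded the critical share of the range (0.526), where chance flags about 1 in 20. Array 63 gave 25 of the 27, and its part in the differences was not tested beyond the values without it. It had a median correlation of 0.642, a spike-in signal of 15.9 and a median signal of 278. Array 63 was the highest for Abcc6 (signal 1978), Atf3 (473), Chrnb4 (1874), Cox6a2 (917), Dlg4 (1986.5), Gabra2 (759), Hes3 (1179) and Htr5a (746.5). It was the lowest for the mitochondrial and redox genes Cyc1 (387), Gstm1 (2313), Prdx3 (182) and Prdx6 (1062), and for the proteasome genes Psmb1 (118) and Psmc4 (49). It was also the lowest for Cck (471), Hpca (1968.5), Hsp90ab1 (5164), Mobp (1273), Sqle (124), Srpk2 (146), Sv2a (255) and Ubqln1 (66.3). The other 2 were Aopep in yoked array 94 (108) and Stx5 in yoked array 25 (480.0).

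The difference of hidden platform and yoked rats was larger at 24 than at 3 months by 1.32 for Rpl41, 1.46 for Lysmd4, 1.35 for Synj1 and 1.47 for Txnl1, in limma's test of that difference without arrays of low correlation. With all 79 arrays none of the 4 passed (adjusted p between 0.183 and 0.289).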

How the results depend on the processing

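The count of 3 probe sets called with all 60 aged arrays became 269 in the 24 arrays of the 2 groups, 215 in those without array 63, 7 in all 79 arrays, 23 with a 60% filter, 1 with quantile normalization, 6 with median centring, 733 with array weights (322 higher, 411 lower), 5 with the animal number range as a block, 16 with the ratio of 3' and 5' controls as a covariate and 200 without the 9 arrays of low correlation. It was 48, 0 and 0 within ranges 1, 2 and 3 (672 and 159 at an unadjusted p under 0.05 in limma in ranges 2 and 3), and 0 without the 3 of the 24 arrays with a spike-in signal over 12 (421 at an unadjusted p under 0.05). Leaving out 1 array at a time gave 0 to 29 calls, and 86 (without yoked array 94) to 302 (without B array 10) where the 9 were already left out; there the count was also 102, 110 and 129 without yoked arrays 61, 25 and 62. The cause was not tested. B minus unimpaired called 87 probe sets without the 9 in place of 3, and the difference between ages 11 in place of 0. The 3 called probe sets kept their direction under all 43 alternatives each, and in 25 of the 129 cases did not pass. With spike-in signal as a covariate and all 60 aged arrays, 106 of 109 genes and probe sets kept both direction and outcome. Of the rest, 1 no longer passed and 2 newly passed. Only the 3 called probe sets had passed with all arrays, so for nearly all items the outcome kept was that of not passing. This does not show how the calls made without the 9 arrays depend on spike-in signal. Of 109 genes and probe sets, 10 reversed somewhere: Cyc1 with median centring (0.0102), in range 1 (0.0529) and range 2 (0.40) and without yoked array 61, 94 or 95 (its values without 1 array ran from -0.5429 to 0.0527), Aif1 (-0.0231) and Rpl27 (-0.0114) in range 1, Pmp22 (0.12), Bdnf (-0.0798), Mobp (0.19) and Prdx6 (0.31) in range 2, Sv2a (-0.0128), Tap1 (0.16) and Hpca (-0.21) in range 3, and Hpca without array 63 or the 9 (-0.002; without 1 array, up to 0.4266) and without the 3 spike-in arrays (-0.0029). No paired analysis was possible because no animal number is shared between the groups. Signals near the pseudocount of 15, such as the lowest of Rpl30 and Ugt2b1, understate the size of a change.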

Other observations

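Some genes of learning are read by several probe sets that did not move together. Without the 9 arrays, 15 genes of the lists had a called probe set that was not the one of highest mean signal. Of all 5244 probe sets 3.81% passed there, and no share was computed for the other probe sets of listed genes. The probe sets below were chosen after their values were seen. Homer1 encodes a postsynaptic scaffold whose short form is induced by activity. AF093268_s_at of Homer1 had a lowest, median and highest signal of 844, 1388 and 2022 in B rats, against 572, 647 and 1299 in yoked rats, with 10 of 16 B arrays above every yoked array. It rose by 0.78 ± 0.22 (adjusted p = 0.0306) without the 9, while the other 5 Homer1 probe sets lay between -0.19 and 0.25. Against the same yoked arrays it was higher in unimpaired rats by 1.12 ± 0.23 (adjusted p = 0.0461) and differed by 0.64 ± 0.25 (adjusted p = 0.554) in impaired rats. Jun encodes a subunit of the AP-1 transcription factor. Its probe set rc_AI175959_at had 63, 165 and 279 in B rats, against 184, 343 and 699 in yoked rats and fell by 0.95 ± 0.23 (adjusted p = 0.0135). The other Jun probe sets differed by -0.88 ± 0.32 (adjusted p = 0.0975) and -0.02 ± 0.30 (adjusted p = 0.974). Slc1a3 encodes a glutamate transporter of astrocytes. Its probe set S75687_s_at had 17.5, 76.15 and 135.8 in B rats, against 101.8, 182.5 and 330.7 in yoked rats. It fell by 1.37 ± 0.32 (adjusted p = 0.0127), and the other 3 lay between -0.53 and -0.22 without passing. The brightest of these, S59158_at, differed by -0.22 ± 0.13 (adjusted p = 0.301). Its mean signal was 4883, against 127.2 for S75687_s_at.

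Ykt6 and Ap2s1, outside the naming rule and picked after their values were seen, rose without the 9 arrays. Ykt6, a SNARE protein of vesicle fusion, had 47.4, 198 and 298 in B rats, against 22.3, 47.8 and 242 in yoked rats and rose by 1.35 ± 0.36 (adjusted p = 0.0241). The ranges overlapped, with 6 of 16 B arrays above every yoked array. Ap2s1, a subunit of the AP-2 adaptor of clathrin-mediated endocytosis, had 446, 1227 and 1968 in B rats, against 142, 435 and 771 in yoked rats and rose by 1.32 ± 0.29 (adjusted p = 0.0102), with 12 of 16 B arrays above every yoked array. Without array 63, 4 probe sets (0.0763%) had every B array above every yoked array, the added ones being of Pdia3, a disulfide isomerase of the endoplasmic reticulum, and Fhip2b. The probe set of Pdia3 rose by 0.59 ± 0.15 (adjusted p = 0.0209) without the 9.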
